A study of Mus musculus with 4 samples.

Results

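The 40 genes described here act in mitosis: cyclins and Cdk1, mitotic kinases, kinetochore and spindle proteins, cytokinesis proteins, the machinery of anaphase, and the proliferation markers Mki67 and Top2a. They were chosen by gene symbol from the deposited table of 48709 genes, in which each had 1 row. All 40 had a mean value of at least 10 and so were among the 18436 genes tested. RNA had been sequenced from the left lung lobe of untreated newborn C57BL/6 mice at postnatal day 1. The groups were 2 RykSL/SL mice, homozygous for the SL allele of Ryk, and 2 wild-type mice. Ryk encodes a WNT receptor, and the effect of the SL allele on its transcript is not described in the labels. Each library was a separate mouse according to the extraction protocol, while sex and litter are not given. The values are normalized counts as deposited.

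In RykSL/SL lung 1 most of these genes stood above the wild-type lungs, and in RykSL/SL lung 2 most stood within or below the wild-type range. Their median difference from the wild-type mean was 0.58 in RykSL/SL lung 1 and -0.19 in RykSL/SL lung 2, on the log2(value + 1) scale used for all differences below. The same medians over all tested genes were 0 and -0.02. The largest difference of the 40 genes in RykSL/SL lung 1, 1.22, was that of cyclin B1, Ccnb1, which activates Cdk1 at mitotic entry. Ccnb1 was at 300 in RykSL/SL lung 1 and 111 in RykSL/SL lung 2, against 131 and 125 in the wild-type lungs. Of its transcript sequence, 23.4% is also found in other genes, so some of its reads may not be its own. None of the 40 genes passed the test between the genotypes.

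A cell builds the mitotic machinery late in its cycle: cyclin-bound Cdk1 starts mitosis, kinetochores tie chromosomes to spindle microtubules, and the anaphase-promoting complex (APC/C) then releases the sister chromatids before the cell divides. Many of these transcripts are made in G2 and M phase and are low in resting cells, so in a tissue they are read as marks of dividing cells. The newborn lung still grows, and its epithelial, endothelial and mesenchymal cells divide as alveoli form. In bulk RNA, a different number of dividing cells and a different amount of these transcripts per cell cannot be told apart.

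A pair of short promoter elements is known from such genes. The cell cycle genes homology region (CHR, TTTGAA) is bound by MuvB-containing complexes, the repressive DREAM complex and the activating MYB and FOXM1 forms, and CCAAT boxes are bound by NF-Y. Promoters of 35 of the 40 genes were found in the RefSeq promoter table (GRCm38.p6), which spans 250 bases before to 50 bases after each annotated start; Ect2 and Prc1 had 2 promoters each. CHR was searched as TTTGAA and CCAAT as such, on both strands. A CHR and a CCAAT match share a base in Cdca8, and in Ube2c a pair of CCAAT matches on opposite strands overlaps. CHR was present in 28 of the 35 genes (80.0%), against 17.9% of all 32851 promoters in the table. CCAAT was present in 27 (77.1%), against 37.4% of all promoters, and 19 genes (54.3%) held at least 2 CCAAT boxes, against 11.7%. Both motifs occurred in 24 genes (68.6%), against 6.95%. A match describes the letters in the window and is not evidence of binding.

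The 5 promoters printed here are those with the largest differences of RykSL/SL lung 2 from wild type, in either direction, among the 24 genes that hold both motifs. They are given 5′ to 3′ along the gene from 250 bases before to 30 bases after the start, in lower case, with the CHR and CCAAT matches in capitals; a match on the opposite strand appears as its reverse complement. Espl1 lies at chr15:102296043-102296322 on the plus strand, Ttk at chr9:83834439-83834718 on the plus strand and Aurka at chr2:172370541-172370820 on the minus strand. Cdca3 lies at chr6:124829926-124830205 and Cenpa at chr5:30666636-30666915, both on the plus strand. In Aurka and Cdca3 the CHR begins past the printed end, at bases 33 and 31 counted from 1 at the start.
Espl1: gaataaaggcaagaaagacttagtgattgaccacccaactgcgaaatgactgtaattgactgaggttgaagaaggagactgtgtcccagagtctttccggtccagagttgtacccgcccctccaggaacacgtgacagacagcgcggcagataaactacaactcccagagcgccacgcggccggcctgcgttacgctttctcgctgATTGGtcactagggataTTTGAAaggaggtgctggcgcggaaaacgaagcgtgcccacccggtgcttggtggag
Ttk: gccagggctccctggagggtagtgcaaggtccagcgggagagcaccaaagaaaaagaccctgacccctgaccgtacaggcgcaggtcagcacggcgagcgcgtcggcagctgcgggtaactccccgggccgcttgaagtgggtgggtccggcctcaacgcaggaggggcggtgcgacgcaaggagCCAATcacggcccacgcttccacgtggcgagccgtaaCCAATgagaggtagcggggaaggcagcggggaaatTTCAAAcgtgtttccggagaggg
Aurka: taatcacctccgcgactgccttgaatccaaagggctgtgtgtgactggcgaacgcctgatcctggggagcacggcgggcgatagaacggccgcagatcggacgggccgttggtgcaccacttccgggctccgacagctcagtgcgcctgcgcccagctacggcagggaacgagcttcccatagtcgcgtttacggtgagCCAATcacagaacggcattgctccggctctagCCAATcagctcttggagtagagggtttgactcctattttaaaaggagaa
Cdca3: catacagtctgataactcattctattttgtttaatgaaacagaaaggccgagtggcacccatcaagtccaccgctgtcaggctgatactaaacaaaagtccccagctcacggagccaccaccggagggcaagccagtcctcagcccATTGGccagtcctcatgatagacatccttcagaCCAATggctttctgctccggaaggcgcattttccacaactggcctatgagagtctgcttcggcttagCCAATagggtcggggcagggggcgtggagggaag
Cenpa: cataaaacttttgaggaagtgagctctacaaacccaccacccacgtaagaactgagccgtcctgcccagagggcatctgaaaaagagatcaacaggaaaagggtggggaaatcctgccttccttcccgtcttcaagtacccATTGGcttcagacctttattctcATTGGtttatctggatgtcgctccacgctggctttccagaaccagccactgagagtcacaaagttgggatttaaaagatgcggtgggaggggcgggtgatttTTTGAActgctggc

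Of these 5 genes, Espl1, Ttk and Cenpa stood above both wild-type lungs in each RykSL/SL lung, whereas Aurka and Cdca3 stood above them in RykSL/SL lung 1 and below them in RykSL/SL lung 2. The 24 genes with both motifs had median differences from wild type of 0.58 in RykSL/SL lung 1 and -0.17 in RykSL/SL lung 2. The 11 genes without the pair had medians of 0.52 and -0.20 in the same lungs. With the 250 bases before the start alone, CHR was present in 13 genes (37.1%), against 16.0% of all promoters, and the remaining CHR matches lie at or past the annotated start.

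**Figure D1:**
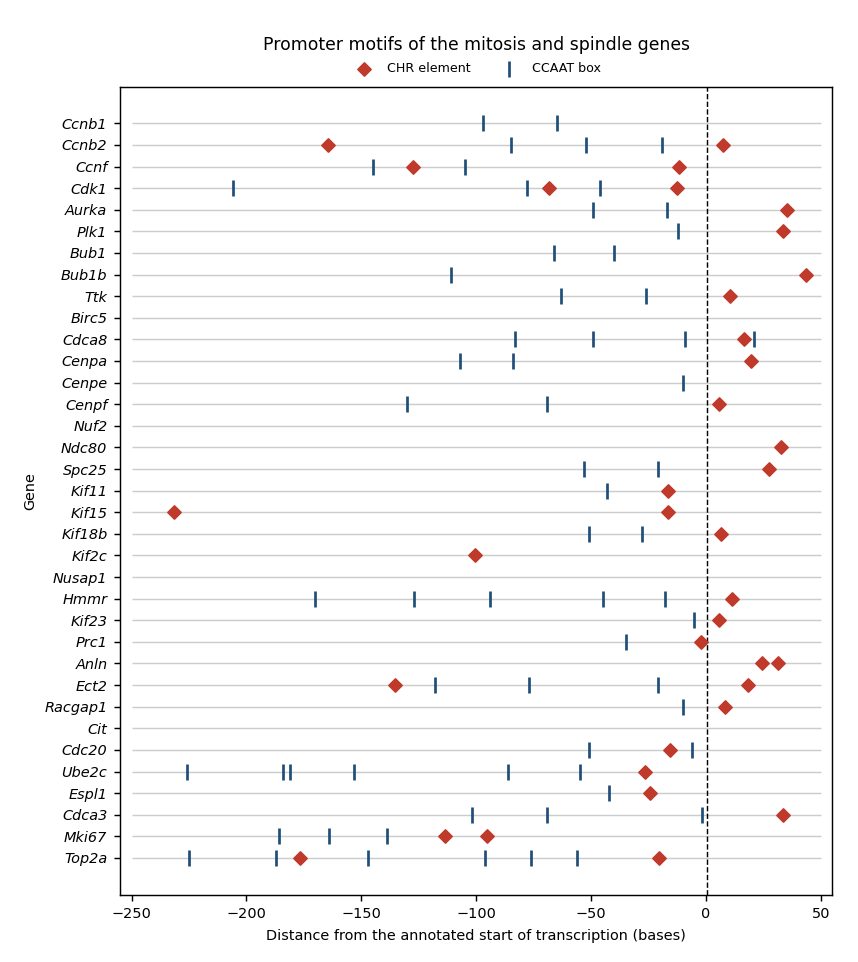
CHR elements (diamonds) and CCAAT boxes (bars) in the RefSeq promoters of 35 mitosis and spindle genes, by distance in bases from the annotated start of transcription (dashed line). Most CHR matches lie close to the start and most CCAAT boxes before it, and 4 genes (Birc5, Nuf2, Nusap1 and Cit) have neither.

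The libraries had totals between 19516482 and 19987634 in RykSL/SL lungs and between 18658239 and 18743098 in wild-type lungs. Ryk itself was at 2757 and 2203 in RykSL/SL lungs, against 2528 and 2525 in wild-type lungs, a log2 difference of -0.04 (SE 0.16, adjusted p = 0.926). Over all tested genes, the log2 difference between the RykSL/SL lungs had an SD of 0.60, against 0.314 between the wild-type lungs. RykSL/SL lung 1 stood apart in its sex-linked transcripts: Xist was at 24836 in it and 9 in RykSL/SL lung 2, against 7 and 23 in wild-type lungs, and the Y-linked Ddx3y was at 56 and 3769 in RykSL/SL lungs, against 2328 and 2197 in wild-type lungs. The part of this difference in the results below was not tested. Lung markers were present in every library, among them surfactant protein C, Sftpc, at 179120 and 135559 in RykSL/SL lungs, against 220945 and 200581 in wild-type lungs.

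Between the genotypes, 0 of the 40 genes were called higher and 0 lower at a Benjamini-Hochberg adjusted p under 0.05 in limma, against 1.47% of all tested genes called higher (271) and 0.917% called lower (169). Their median difference was 0.19, against -0.02 over all tested genes. At an unadjusted p under 0.05, 2 of the 40 genes were higher, Cenpa and Ttk, and 0 lower, against 1925 higher and 1778 lower of the 18436 tested genes. The adjusted p lay between 0.151 and 0.998. The median standard error of the 40 genes was 0.323, against 0.208 over all tested genes, so the spread within genotypes was wider for them than for a typical gene. The number of genes called in the whole table depended on single libraries. Without RykSL/SL lung 1 it was 1199 higher and 1186 lower, and without RykSL/SL lung 2 or either wild-type lung it was 0 in both directions, while 0 of the 40 genes were called in each of these fits.

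Each RykSL/SL lung was then read by itself against the wild-type lungs. A gene was taken as past the fold when it lay at least 0.5 from the wild-type mean and outside both wild-type lungs; this is a description of single lungs and carries no test. In RykSL/SL lung 1, 25 of the 40 genes (62.5%) were past the fold above wild type, against 11.1% of all tested genes, and 0 below, against 12.7%. Of the 40, 39 stood above both wild-type lungs there, against 40.9% of all tested genes; the exception was Cit. In RykSL/SL lung 2, 3 genes (7.5%) were past the fold above wild type, against 17.0%, and 6 (15%) below, against 19.1%, so neither share exceeded that of all genes. There 22 genes (55%) stood below both wild-type lungs, against 44.8%. Against wild-type lung 1 alone, 0 genes in RykSL/SL lung 2 were past the fold above and 11 below it, and the median was -0.28. Against wild-type lung 2 alone, 3 were past it above and 4 below, and the median was -0.05. The shares of all tested genes against 1 wild-type lung are not given here, and the shares above do not apply to these counts.

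On the median, the RykSL/SL lungs lay further from each other than either lay from the wild-type mean. RykSL/SL lung 2 was at least 0.5 below RykSL/SL lung 1 in 30 of the 40 genes, against 15.3% of all tested genes, and at least 0.5 above it in 0, against 15.2%. The median of this difference was -0.81, against -0.02 over all tested genes. In 22 genes RykSL/SL lung 1 lay above and RykSL/SL lung 2 below both wild-type lungs, against 10.9% of all genes. Both RykSL/SL lungs lay above both wild-type lungs in 4 of the 40 genes, against 25.7%. These 4 were Cdk1, Ttk, Cenpa and Espl1. Of the 40 genes, 0 had both RykSL/SL lungs below both wild-type lungs, against 26.9% of all tested genes. RykSL/SL lung 1 was the highest of the 4 lungs in 38, against 24.5%. The wild-type lungs also differed in this group of genes. Their median difference was 0.21, against 0.0 over all tested genes. Wild-type lung 1 was the higher in 33 of the 40, a count whose share over all tested genes is not given here. In 6 genes (15%) the wild-type lungs were at least 0.5 apart, against 8.1% of all tested genes. Summed over the 40 genes, the values were 10520 and 6088 in RykSL/SL lungs 1 and 2, against 7363 and 6439 in wild-type lungs 1 and 2. The comparisons of each RykSL/SL lung share the same wild-type lungs.

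**Figure D2:**
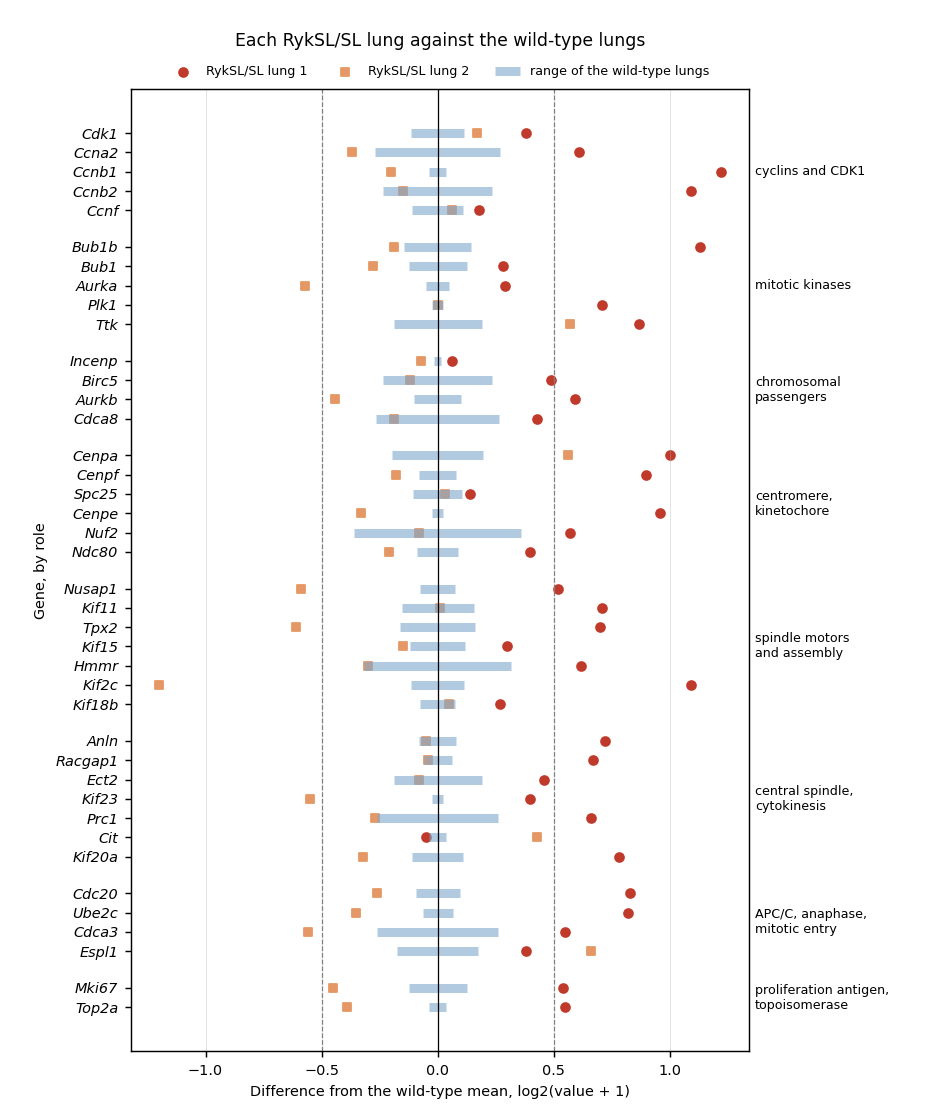
Difference of RykSL/SL lung 1 (circles) and RykSL/SL lung 2 (squares) from the wild-type mean for the 40 genes, on the log2(value + 1) scale, grouped by role; blue bars span the wild-type lungs and dashed lines mark 0.5. The circles run from -0.05 to 1.22 and the squares from -1.20 to 0.66, and 25 circles lie past the right dashed line.

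The same reading with limma's pooled spread, fitted to 1 RykSL/SL lung and both wild-type lungs, assumes that the lone lung varies as the others do. The spread between mice in this fit comes from the wild-type lungs only. Over all tested genes, their log2 difference had an SD of 0.314, against 0.6 between the RykSL/SL lungs. For RykSL/SL lung 1 alone it called 0 of the 40 genes in either direction, as of all genes (0.0% higher and 0.0% lower). At an unadjusted p under 0.05, 21 of the 40 were higher and 0 lower, against 2758 and 2491 of the 18436 tested genes, and the lowest adjusted p was 0.0966. For RykSL/SL lung 2 alone it called 0 of the 40, against 6.5% of all tested genes higher and 6.43% lower. There 1 of the 40 was higher and 5 lower at an unadjusted p under 0.05, against 3755 and 4001 of all tested genes, and the lowest adjusted p was 0.0592.

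Among the cyclins and their kinase, 3 of 5 genes were past the fold above wild type in RykSL/SL lung 1 and 0 of 5 past it in RykSL/SL lung 2. Over all tested genes, 11.1% were past it above in RykSL/SL lung 1, the share to set beside each role below. In RykSL/SL lung 2 the shares were 17.0% above and 19.1% below. Ccnb1 (chr13:100778650-100786570, GRCm38) had the largest difference of the 40 genes in RykSL/SL lung 1, 1.22, and a difference of -0.20 in RykSL/SL lung 2. Its values, given above, did not differ between the genotypes beyond their spread, with a log2 difference of 0.51 (SE 0.447, adjusted p = 0.569). RykSL/SL lung 1 was the only lung apart, at 2.33 times the wild-type mean. Of its transcript sequence, 23.4% is shared in 50-base stretches with other genes, with its pseudogene Ccnb1-ps the most, so some reads may belong to another gene. Cyclin B2, Ccnb2, was at 221 and 93 in RykSL/SL lungs, against 122 and 88 in wild-type lungs. Cyclin A2, Ccna2, which acts in S phase and G2, was at 305 and 154 in RykSL/SL lungs, against 241 and 165 in wild-type lungs. Here the wild-type lungs were themselves 0.54 apart.

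Cdk1 (chr10:69336635-69352938), the kinase that drives mitotic entry, differed less between the RykSL/SL lungs than cyclins A2, B1 and B2. It was at 498 and 431 in RykSL/SL lungs, against 415 and 354 in wild-type lungs. Both RykSL/SL lungs exceeded both wild-type lungs, but the log2 difference of 0.27 (SE 0.169, adjusted p = 0.418) did not pass the test. Cyclin F, Ccnf, was at 59 and 54 in RykSL/SL lungs, against 48 and 56 in wild-type lungs, with overlapping groups.

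**Figure D3:**
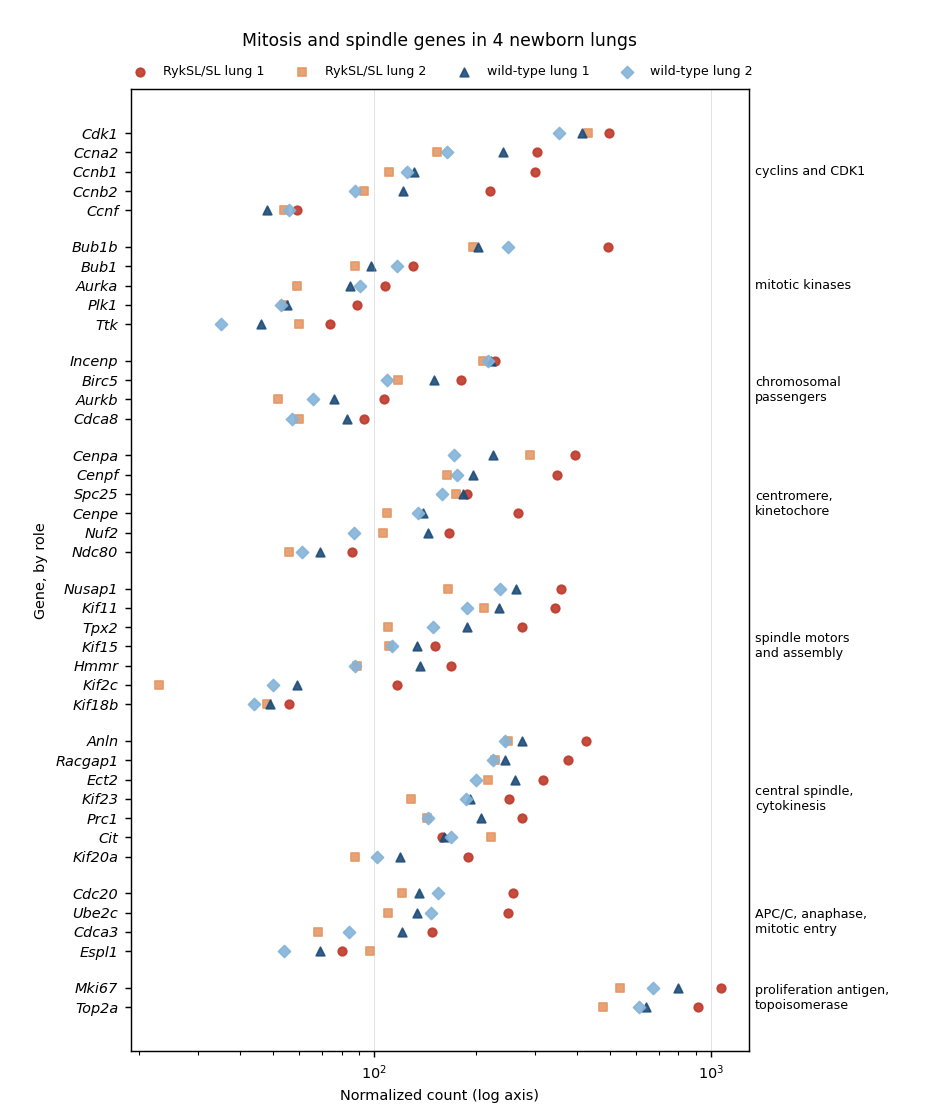
Normalized count of each of the 40 genes in every lung (log axis), RykSL/SL lungs 1 and 2 as circles and squares and wild-type lungs 1 and 2 as triangles and diamonds, grouped by role. RykSL/SL lung 1 is the highest of the 4 lungs in 38 genes, all but Cit and Espl1; Kif2c in RykSL/SL lung 2, at 23, is the lowest value.

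The mitotic kinases split in RykSL/SL lung 2. Ttk (chr9:83834689-83872389), which encodes the checkpoint kinase MPS1, was at 74 and 60 in RykSL/SL lungs, against 46 and 35 in wild-type lungs. Both RykSL/SL lungs were higher, by 0.87 and 0.57, and its log2 difference of 0.72 (SE 0.28, unadjusted p = 0.0424) had an adjusted p of 0.232. Aurka, the centrosome kinase that activates Plk1, was at 108 and 59 in RykSL/SL lungs, against 85 and 91 in wild-type lungs. Its RykSL/SL lungs lay on opposite sides of both wild-type lungs, with differences of 0.29 and -0.57. Plk1 (chr7:122159439-122169873), a kinase of mitotic entry and spindle formation, was at 89 and 54 in RykSL/SL lungs, against 55 and 53 in wild-type lungs. RykSL/SL lung 2 lay within the wild-type range, and the log2 difference between genotypes was 0.36 (SE 0.308, adjusted p = 0.565). Bub1b, which encodes the checkpoint protein BUBR1, was at 494 and 197 in RykSL/SL lungs, against 204 and 249 in wild-type lungs, a difference from wild type of 1.13 in RykSL/SL lung 1 and -0.19 in RykSL/SL lung 2. Bub1, its paralog at the kinetochore, was at 130 and 88 in RykSL/SL lungs, against 98 and 117 in wild-type lungs, and its differences of 0.28 and -0.28 cancelled in the mean.

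The chromosomal passenger complex, which corrects faulty attachments and later marks the cleavage site, had 1 of 4 genes past the fold in RykSL/SL lung 1. This was its kinase Aurkb, at 107 and 52 in RykSL/SL lungs, against 76 and 66 in wild-type lungs. Birc5 (chr11:117849251-117855743), which encodes survivin, was at 181 and 118 in RykSL/SL lungs, against 151 and 109 in wild-type lungs. The groups overlapped, with a log2 difference of 0.19 (SE 0.288, adjusted p = 0.759). Cdca8 (chr4:124918465-124939311), which encodes borealin, was at 93 and 60 in RykSL/SL lungs, against 83 and 57 in wild-type lungs, with a log2 difference of 0.12 (SE 0.323, adjusted p = 0.873). Incenp, the scaffold of the complex, was nearly even over the lungs, at 229 and 210 in RykSL/SL lungs, against 222 and 218 in wild-type lungs.

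Of the centromere and kinetochore genes, 4 of 6 were past the fold in RykSL/SL lung 1. Cenpa (chr5:30666777-30674830), the histone H3 variant that marks centromeres, was at 394 and 290 in RykSL/SL lungs, against 225 and 172 in wild-type lungs. Both RykSL/SL lungs were the higher, by 1.00 and 0.56. Its log2 difference of 0.78 (SE 0.231, unadjusted p = 0.0149) was the largest of the 40 genes between the genotypes and had an adjusted p of 0.151. Cenpf (chr1:189640606-189688086), a large protein of the outer kinetochore, was at 348 and 164 in RykSL/SL lungs, against 197 and 176 in wild-type lungs. With RykSL/SL lung 1 above and RykSL/SL lung 2 below wild type, the log2 difference was 0.36 (SE 0.355, adjusted p = 0.619). Cenpe, a kinesin that brings chromosomes to the spindle equator, showed the same order, at 268 and 109 in RykSL/SL lungs, against 140 and 135 in wild-type lungs. The subunits of the NDC80 complex, which binds microtubules, differed less between the RykSL/SL lungs than Cenpe and Cenpf. Ndc80 was at 86 and 56 in RykSL/SL lungs, against 69 and 61 in wild-type lungs, and Spc25 at 188 and 175 in RykSL/SL lungs, against 184 and 159 in wild-type lungs. Nuf2 was at 167 and 106 in RykSL/SL lungs, against 144 and 87 in wild-type lungs, and its wild-type lungs were 0.72 apart, the most of the 40 genes.

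Spindle motors and assembly factors held the widest split, and 5 of 7 were past the fold above wild type in RykSL/SL lung 1. Kif2c, which encodes the microtubule-depolymerising kinesin MCAK, was at 117 in RykSL/SL lung 1 and 23 in RykSL/SL lung 2, against 59 and 50 in wild-type lungs. RykSL/SL lung 2 differed from RykSL/SL lung 1 by -2.30 and was at 0.434 times the wild-type mean. This value of 23, the lowest of the members in RykSL/SL lung 2, corresponds to about 20 reads. Its exact Poisson interval of 14.3 to 36.2 (95%, counting error only) lies below both wild-type values. The counting error of the wild-type values and the choice of an extreme gene are not in this interval. The wild-type values lay between the RykSL/SL values, and the log2 difference between genotypes was -0.06 (SE 0.705, adjusted p = 0.975).

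The spindle assembly factor Tpx2, which activates Aurora A on the spindle, was at 274 and 110 in RykSL/SL lungs, against 188 and 150 in wild-type lungs. Nusap1, which bundles spindle microtubules, was at 359 and 166 in RykSL/SL lungs, against 263 and 237 in wild-type lungs. In both genes RykSL/SL lung 1 was past the fold above and RykSL/SL lung 2 past the fold below wild type, as in Kif2c. Kif11 (chr19:37376403-37421859), the kinesin-5 motor that separates spindle poles, was at 345 and 212 in RykSL/SL lungs, against 235 and 189 in wild-type lungs. RykSL/SL lung 2 lay between the wild-type lungs, and the log2 difference was 0.36 (SE 0.273, adjusted p = 0.51). Kif18b (chr11:102905529-102925124), a kinesin of astral microtubule ends, was at 56 and 48 in RykSL/SL lungs, against 49 and 44 in wild-type lungs, a log2 difference of 0.16 (SE 0.258, adjusted p = 0.779). Kif15, a motor that backs up Kif11, was at 152 and 111 in RykSL/SL lungs, against 134 and 113 in wild-type lungs. Hmmr, a spindle-associated hyaluronan receptor, was at 169 and 89 in RykSL/SL lungs, against 137 and 88 in wild-type lungs, with wild-type lungs 0.63 apart.

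In the central spindle and cytokinesis group, 4 of 7 genes were past the fold above wild type in RykSL/SL lung 1. Racgap1 (chr15:99620496-99651656), a subunit of centralspindlin, was at 375 and 229 in RykSL/SL lungs, against 245 and 225 in wild-type lungs. Anln (chr9:22331214-22389206), which encodes the contractile ring scaffold anillin, was at 426 and 250 in RykSL/SL lungs, against 274 and 245 in wild-type lungs. In both, RykSL/SL lung 2 lay within the wild-type range. The log2 differences were 0.32 for Racgap1 (SE 0.26, adjusted p = 0.539) and 0.33 for Anln (SE 0.273, adjusted p = 0.542). Kif23, the motor of centralspindlin, was at 251 and 129 in RykSL/SL lungs, against 193 and 187 in wild-type lungs, so it was past the fold below wild type in RykSL/SL lung 2. Kif20a, a kinesin of the central spindle, was at 190 and 88 in RykSL/SL lungs, against 119 and 102 in wild-type lungs. Of its transcript, 25.2% is shared in 50-base stretches with other genes on either strand, with Cdc23 the most. Exons on the opposite strand overlap 1271 of its exon bases. Prc1, which cross-links central spindle microtubules, was at 274 and 143 in RykSL/SL lungs, against 207 and 144 in wild-type lungs. Ect2, the exchange factor that activates RhoA at the cleavage site, was at 316 and 217 in RykSL/SL lungs, against 262 and 201 in wild-type lungs.

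Cit, which encodes citron kinase of the midbody, was alone among the 40 genes in having RykSL/SL lung 1 below the wild-type mean. It was at 159 and 222 in RykSL/SL lungs, against 161 and 169 in wild-type lungs, so RykSL/SL lung 2 was the high one.

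Of the 4 genes of the APC/C, anaphase and mitotic entry, 3 were past the fold above wild type in RykSL/SL lung 1. Espl1 (chr15:102296293-102324356), which encodes separase, the protease that cleaves cohesin, was, besides Cit, the only gene of the 40 with RykSL/SL lung 2 above RykSL/SL lung 1. It was at 80 and 97 in RykSL/SL lungs, against 69 and 54 in wild-type lungs. Both RykSL/SL lungs were the higher, with a log2 difference of 0.52 (SE 0.253, adjusted p = 0.312). Cdc20 (chr4:118432901-118437352), the APC/C activator, was at 259 and 121 in RykSL/SL lungs, against 136 and 155 in wild-type lungs, a log2 difference of 0.28 (SE 0.364, adjusted p = 0.706). Ube2c, the ubiquitin-conjugating enzyme of the APC/C, was at 249 and 110 in RykSL/SL lungs, against 134 and 147 in wild-type lungs. In both, RykSL/SL lung 1 was past the fold above wild type and RykSL/SL lung 2 was the lowest of the 4 lungs. Cdca3, which promotes mitotic entry, was at 148 and 68 in RykSL/SL lungs, against 121 and 84 in wild-type lungs, past the fold on opposite sides in the RykSL/SL lungs.

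The general proliferation marks had the highest values of the 40 genes. Mki67 (chr7:135689784-135716361), which encodes the Ki-67 antigen of the mitotic chromosome surface, was at 1068 and 536 in RykSL/SL lungs, against 800 and 673 in wild-type lungs. Top2a (chr11:98992943-99024189), the topoisomerase that untangles sister chromatids, was at 914 and 478 in RykSL/SL lungs, against 641 and 609 in wild-type lungs. In each gene RykSL/SL lung 1 was the highest and RykSL/SL lung 2 the lowest lung, with differences from wild type of 0.54 and -0.45 for Mki67 and 0.55 and -0.39 for Top2a. The log2 difference between genotypes was 0.04 (SE 0.323, adjusted p = 0.956) for Mki67, a sign that turned with values scaled to the same total per library (-0.03). It was 0.08 (SE 0.301, adjusted p = 0.911) for Top2a.

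Values were also taken per kilobase of exon (GENCODE M21), with the exons of all annotated transcripts of a gene joined. This length can exceed that of the transcript expressed, so levels compare only roughly between genes. The 40 genes ran from 7.56 to 144 normalized counts per kilobase in RykSL/SL lung 1 and from 5.27 to 87.4 in RykSL/SL lung 2. In the wild-type lungs they ran from 6.15 to 84.1 and from 6.17 to 83.0. In RykSL/SL lungs the highest mean levels per kilobase were those of Ccnb2, at 103.0 in RykSL/SL lungs and 68.6 in wild-type lungs, Cdc20, at 102.0 in RykSL/SL lungs and 77.9 in wild-type lungs, and Cdk1, at 94.1 in RykSL/SL lungs and 77.9 in wild-type lungs; in wild-type lungs Mki67 (73.2) and Top2a (69.3) also exceeded Ccnb2. The Ccnb2 level was 144 in RykSL/SL lung 1 and 60.7 in RykSL/SL lung 2. Among the lowest were Ccnf, at 7.24 in RykSL/SL lungs and 6.67 in wild-type lungs, and Espl1, at 10.1 in RykSL/SL lungs and 7.03 in wild-type lungs. The reads behind the RykSL/SL lung 2 values were between about 20 for Kif2c and 457 for Mki67. Over 10% of the transcript was shared in 50-base stretches with other genes on either strand in 6 of the 40 (Kif20a, Ccnb1, Ube2c, Ccna2, Cdc20 and Plk1). Exons of a gene on the opposite strand overlapped in 8. Over the 31 genes with neither, the median difference from wild type was 0.55 in RykSL/SL lung 1 and -0.15 in RykSL/SL lung 2, and 17 were past the fold in RykSL/SL lung 1.

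Other cell cycle genes were read from lists written with earlier results of these data known. A list of 70 further mitosis genes also lay above wild type in RykSL/SL lung 1 and below it in RykSL/SL lung 2 on the median, with differences of 0.24 in RykSL/SL lung 1 and -0.22 in RykSL/SL lung 2. Past the fold above wild type in RykSL/SL lung 1 were 18 (25.7%, against 11.1% of all tested genes), and 14 of the 70 were past it below in RykSL/SL lung 2, against 19.1%. None was called between genotypes, and 4 were higher and 3 lower at an unadjusted p under 0.05 in limma, against 1925 and 1778 of the 18436 tested genes. The smallest p belonged to Cdc25b, the phosphatase that activates Cdk1, at 1549 and 1219 in RykSL/SL lungs, against 784 and 815 in wild-type lungs, with an adjusted p of 0.0776. Hjurp, the chaperone of Cenpa, was at 1871 and 1585 in RykSL/SL lungs, against 1167 and 1186 in wild-type lungs (adjusted p = 0.126), and like Cenpa was higher in both RykSL/SL lungs. Gpsm2 was lower in both, at 438 and 237, against 582 and 602 in wild-type lungs (adjusted p = 0.184).

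DNA replication genes, which act in S phase, had medians below wild type in both RykSL/SL lungs. Their median differences were -0.30 in RykSL/SL lung 1 and -0.38 in RykSL/SL lung 2 over the 49 tested of 50 listed, and -0.22 in RykSL/SL lung 2 without wild-type lung 1. In 33 of the 49 both RykSL/SL lungs lay below both wild-type lungs (67.3%, against 26.9% of all tested genes). Only Mcm5, a subunit of the replicative helicase, was called, lower (2.04% of the list, against 0.917% of all tested genes). Mcm5 was at 150 and 136 in RykSL/SL lungs, against 307 and 278 in wild-type lungs. Its log2 difference was -1.03 (SE 0.177, adjusted p = 0.0475). No gene of the list was called lower without RykSL/SL lung 2, without either wild-type lung, with quantile normalization, without the mean-variance trend or without the filter on low values. Its partner subunit Mcm2 was at 200 and 163 in RykSL/SL lungs, against 392 and 340 in wild-type lungs (adjusted p = 0.0593). Dbf4, the activator of the replication kinase Cdc7, lay on the other side, at 701 and 633 in RykSL/SL lungs, against 404 and 344 in wild-type lungs (adjusted p = 0.0629). At an unadjusted p under 0.05, 2 of the 49 were higher and 11 lower, against 1925 and 1778 of the 18436 tested genes.

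The 24 listed transcription regulators of the cell cycle had medians of -0.03 in RykSL/SL lung 1 and 0.11 in RykSL/SL lung 2, with 0 called and 7 higher and 1 lower at an unadjusted p under 0.05, against 1925 and 1778 of the 18436 tested genes. E2f1, which activates S phase genes, was at 92 and 130 in RykSL/SL lungs, against 216 and 203 in wild-type lungs (adjusted p = 0.108). The pocket protein gene Rb1, whose product binds E2F factors, was at 1059 and 1165 in RykSL/SL lungs, against 703 and 665 in wild-type lungs (adjusted p = 0.0684). Of the CDK inhibitors and growth arrest genes, 18 of 19 were tested, and 2 were called, both higher (11.1%, against 1.47% of all tested genes). These rose in each RykSL/SL lung: Cdkn1a, which encodes the CDK inhibitor p21, was 2.89 and 2.55 above the wild-type mean (adjusted p = 0.00439), and Gadd45g was 1.65 and 1.25 above it. Gadd45g, a growth arrest gene, was at 592 and 450 in RykSL/SL lungs, against 187 and 190 in wild-type lungs (log2 difference 1.45, SE 0.19, adjusted p = 0.0266). The list's medians were 0.26 in RykSL/SL lung 1 and 0.40 in RykSL/SL lung 2. Over these 4 lists, the 2 calls higher and 1 lower became 12 and 7 without RykSL/SL lung 1, and 0 and 0 without RykSL/SL lung 2 or either wild-type lung. Without the trend 1 call higher was left, and without the filter 0.

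**Figure D4:**
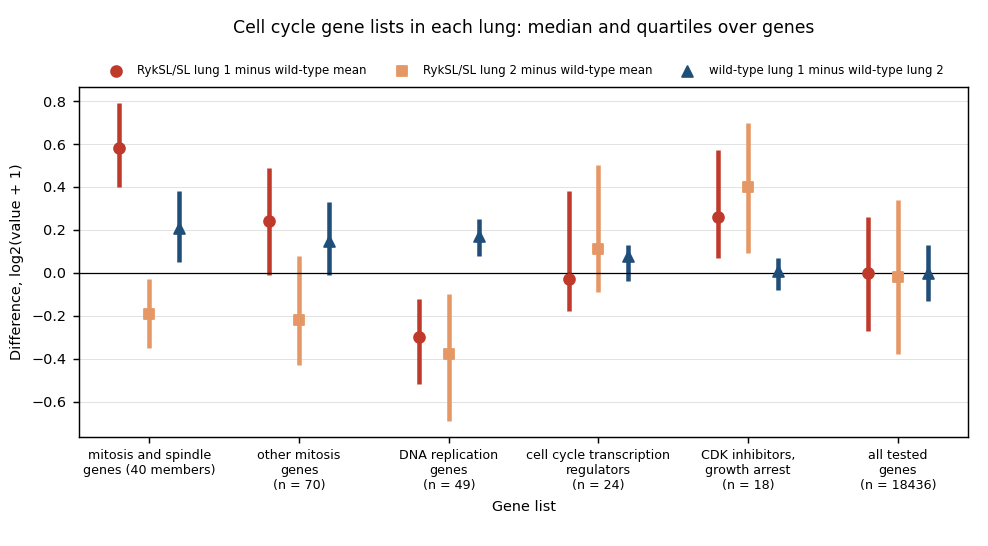
Median (symbols) and quartiles (bars) over genes of the difference on the log2(value + 1) scale, for RykSL/SL lung 1 and RykSL/SL lung 2 against the wild-type mean and for wild-type lung 1 against wild-type lung 2. The mitosis and spindle genes have medians of 0.58 and -0.19 in the RykSL/SL lungs and 0.21 between the wild-type lungs, whereas the DNA replication genes are at -0.30 and -0.38 in the RykSL/SL lungs.

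Markers of cell types that the lobe could hold differed between lungs as well, and their part in the values of the mitosis genes was not tested. In the 12 endothelial genes, RykSL/SL lung 1 was the highest and RykSL/SL lung 2 the lowest by sum, as in the mitosis genes. Their summed values were 45408 and 30104 in RykSL/SL lungs 1 and 2, against 37881 and 41058 in wild-type lungs, with median differences of 0.13 and -0.34 in the RykSL/SL lungs. The median difference of RykSL/SL lung 2 from RykSL/SL lung 1 was -0.67, against -0.81 in the mitosis genes. In 7 of the 12 (58.3%) RykSL/SL lung 1 lay above and RykSL/SL lung 2 below both wild-type lungs. This split held in 22 of the 40 mitosis genes (55%) and 10.9% of all tested genes. Plvap held it, at 2116 and 957 in RykSL/SL lungs, against 2045 and 2105 in wild-type lungs. Kdr, at 3560 and 1978, against 4536 and 4492, was below wild type in both RykSL/SL lungs. So was Emcn, at 1696 and 750, against 2098 and 2092. Flt1 was above wild type in both, at 1526 and 1450, against 1170 and 1159. Between the genotypes 0 of the 12 were called, and 1 was higher and 2 lower at an unadjusted p under 0.05 in limma. Of the 18436 tested genes, 1925 were higher and 1778 lower at that p, and 1.47% were called higher and 0.917% lower. These shares are those to set beside the counts of each cell type list below. Erythroid genes, of which 22 of 23 were in the table, had another order, with sums of 683882 and 815900 in RykSL/SL lungs, against 738719 and 858791 in wild-type lungs and medians of -0.37 and -0.43 in the RykSL/SL lungs; 0 were called, and 0 were higher and 4 lower at an unadjusted p under 0.05. Lymphocyte genes had medians of -0.53 and -1.21 in RykSL/SL lungs 1 and 2 (11 of 23 tested; sums 1430 and 907 in RykSL/SL lungs, against 1771 and 1796 in wild-type lungs), with 2 called lower. Macrophage genes had medians of -0.42 and -0.64 in the RykSL/SL lungs (15 tested; sums 37652 and 28324 in RykSL/SL lungs, against 63409 and 44361 in wild-type lungs), with 1 called lower. Both of these immune lists were lower in RykSL/SL lung 2 than in RykSL/SL lung 1 by median and by sum. Neutrophil genes had medians of 0.01 and -0.06 in the RykSL/SL lungs (8 of 12 tested; sums 6460 and 9439 in RykSL/SL lungs, against 7197 and 6933 in wild-type lungs), with 0 called and 0 at an unadjusted p under 0.05.

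In the lists of fibroblasts, alveolar and airway epithelium and heart muscle, the median difference of RykSL/SL lung 2 from RykSL/SL lung 1 was between -0.19 and 0.09. It was -0.81 in the mitosis genes, -0.67 in the endothelial and -0.54 in the lymphocyte genes. In the erythroid, macrophage and neutrophil genes it was -0.22, -0.16 and -0.09. Fibroblast genes had medians of -0.66 and -0.54 in RykSL/SL lungs 1 and 2 (12 tested; sums 63503 and 54377 in RykSL/SL lungs, against 94206 and 94125 in wild-type lungs), with 1 called higher and 3 lower. Heart muscle genes had medians of -0.92 and -1.11 in the RykSL/SL lungs (14 of 15 tested; sums 4917 and 4352 in RykSL/SL lungs, against 8694 and 8784 in wild-type lungs), with 4 called lower. Alveolar type 2 genes had medians of -0.12 and -0.33 in the RykSL/SL lungs (10 tested; sums 299163 and 258152 in RykSL/SL lungs, against 355479 and 326636 in wild-type lungs). Alveolar type 1 genes had -0.06 and -0.23 in the RykSL/SL lungs (10 tested; sums 120045 and 110187 in RykSL/SL lungs, against 133209 and 130292 in wild-type lungs), and airway genes 0.10 and -0.10 in the RykSL/SL lungs (8 of 10 tested; sums 77285 and 90771 in RykSL/SL lungs, against 84685 and 89669 in wild-type lungs). None of these last 3 lists had a call. At an unadjusted p under 0.05 in limma both alveolar lists had 2 genes lower and the airway list 1 higher. Of the 18436 tested genes, 1925 were higher and 1778 lower at that p, and 1.47% were called higher and 0.917% lower. By sum, both RykSL/SL lungs lay below both wild-type lungs in the fibroblast, heart muscle and alveolar lists and not in the airway list. No listed gene was at 0 in all 4 lungs. Over the cell type lists, the 1 call higher and 10 lower became 6 and 29 without RykSL/SL lung 1, and 0 and 0 without RykSL/SL lung 2 or either wild-type lung.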

How the data were processed

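RNA from the left lung lobe of 2 RykSL/SL and 2 wild-type mice had been made into stranded poly(A) libraries (TruSeq Stranded mRNA) from 3 µg of total RNA, per the labels' protocols. The tools named in the submitters' processing notes are FastQC, STAR 2.4.0a, featureCounts 1.5.1 of Subread and DESeq2 1.14.1, and the named builds are mm10 and GRCm38. The authors deposited whole-number values named as normalized counts, treated here as a score; the sources used here do not state how they were scaled, whether strand was used in counting or how multi-mapping reads were treated. Values of RykSL/SL lung 2 were whole counts times 1.1723 in 99.9% of genes under 400, from which its reads were estimated. Depth limits the lowest values, and intervals cover counting error only.

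Members were found by symbol. Members, lists, roles and tests were chosen with earlier results of these data known. The test was limma 3.58.1 (R 4.3.3) with a mean-variance trend, two-sided, applied to log2(value + 1) of the 18436 genes whose mean was 10 or more, and with Benjamini-Hochberg adjustment over all of them; such differences understate changes of low genes. No count model was run on scaled values. P-values set the difference against the spread between 2 mice per genotype, moderated by limma's prior over all tested genes (4.07 prior degrees of freedom). In fits with 1 RykSL/SL lung, only the wild-type lungs give a spread between mice. In each role the 2 genes with the smallest p were named with values, and all other members are given by values, counts or ranges. From the cell cycle and endothelial lists up to 4 genes of the smallest p were named. The remaining cell type lists are given by counts, medians and sums, apart from the lung marker Sftpc. Lists are described by counts and medians, without a set test. Coordinates are those of the deposited table (GRCm38, counted from 1). Exon lengths, overlaps and shared 50-base sequences came from GENCODE M21, promoters from RefSeq. Remaining steps ran in Python 3.11.15 (scipy 1.17.1, numpy 2.4.6, pandas 2.3.3), and plots in matplotlib 3.10.9. Alternatives were the pseudocount, filter, trend, scaling, fold, promoter window, replicate block and each library left out. The replicate numbers are not said to pair mice, so the lungs were treated as unpaired. Same-numbered lungs of the genotypes deviated with a correlation of -0.058 over genes, which cannot decide whether they share a litter or batch.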

Additional observations from a re-analysis of the deposited data

How the results depend on the processing

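With 2 mice per genotype, calls rest on a spread from 2 degrees of freedom and limma's prior, and a single lung against wild type has no spread of its own. Of the 40 mitosis and spindle genes, 0 were called in either direction under every alternative run. The genes called higher and lower in the whole table were 46 and 26 without the trend, 0 and 0 without the filter on low values, and 437 and 329 with the replicate number as a block; leaving out each library gave 0 to 1199 higher and 0 to 1186 lower. Calls in the other cell cycle lists were 1 higher and 0 lower without the trend, 0 and 0 without the filter, 0 lower with quantile normalization, and 2 lower with the replicate block; leaving out a library gave 0 to 12 higher and 0 to 7 lower. Calls in the cell type lists were 0 higher and 2 lower without the trend, 0 and 0 without the filter, and 0 higher with quantile normalization or the same total per library; leaving out a library gave 0 to 6 higher and 0 to 29 lower. The block turned no member into a call. The causes of these changes were not tested.

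The members' median difference between genotypes was -0.19 to 0.58 with a library left out, the lowest without RykSL/SL lung 1. In RykSL/SL lung 1 it was 0.41 to 0.74 with a wild-type lung left out, and in RykSL/SL lung 2 -0.28 to -0.05. The other mitosis genes' median between genotypes was -0.22 to 0.24 with a library left out and -0.05 with the same total per library. The DNA replication genes' median in RykSL/SL lung 2 was -0.44 to -0.22. With a fold of at least 1 in place of 0.5, 4 members lay past it above wild type in RykSL/SL lung 1, and 0 above and 1 below in RykSL/SL lung 2. Past the fold in RykSL/SL lung 2 were 1 above with the same total per library and 3 below with quantile normalization. With a wild-type lung left out, 0 to 3 lay above and 4 to 11 below in RykSL/SL lung 2, and 17 to 29 above in RykSL/SL lung 1. The shares of all tested genes past the fold at these settings are not given here. With the 250 bases before the start alone, 37.1% of members held a CHR and 31.4% both motifs.

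Single genes were followed through the alternatives only for the 2 members with the smallest p in each role. With a library left out, the log2 difference between genotypes changed sign in 9 of these: it ranged from -0.20 to 1.22 in Ccnb1, -0.12 to 0.49 in Birc5, -0.19 to 0.43 in Cdca8, -0.18 to 0.90 in Cenpf, -0.05 to 0.72 in Anln, -0.04 to 0.67 in Racgap1, -0.26 to 0.83 in Cdc20, -0.45 to 0.54 in Mki67 and -0.39 to 0.55 in Top2a. The other members were not steadier by this measure. Of all 40, 39 lay above the wild-type mean in RykSL/SL lung 1 and 30 below it in RykSL/SL lung 2. These are the differences left when the other RykSL/SL lung is taken out. Mki67 was at -0.03 with the same total per library.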
